A study of Gallus gallus with 12 samples.

Results

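The TNF superfamily is a family of signalling proteins and their receptors that macrophages use to call other immune cells and to decide between survival and death. The genes described here were chosen by symbol as ligands and receptors of this family, and 8 of the 10 named genes were read from a table of 16161 genes. They comprise 2 ligands (TNFSF10 and TNFSF13B) and 6 receptors (TNFRSF1A, TNFRSF1B, TNFRSF10B, TNFRSF11A, TNFRSF21 and FAS), while TNFSF8 and TNFSF15 were not analysed here. RNA was sequenced from HD11, a chicken macrophage-like line transformed by the MC29 avian retrovirus, so every group shares 1 transformed line grown in serum-containing medium. In the LPS group the cells received lipopolysaccharide, a bacterial cell-wall component, at 100 ng/mL for 6 h. In the SeMC group (SeMC+PBS in the labels) they were kept in 100 µM Se-methylselenocysteine, a selenium-containing amino acid, from about 12 h before the time of challenge, and received PBS in place of LPS. The Control group received PBS only. Each group had 3 libraries, and the question was how LPS and SeMC alone altered these messages.

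Ligands of the family are made mostly as membrane-bound trimers, and many are cut loose by proteases. Receptors with a death domain, such as TNFRSF1A, FAS, TNFRSF21 and mammalian TNFRSF10B, can recruit TRADD or FADD and start caspase-dependent death or NF-κB signalling, whereas TNFRSF1B, TNFRSF11A and CD40 have no death domain and bind TRAF adaptors. In mammalian macrophages, LPS is a classical inducer of TNF ligands and of the inhibitors that end TNF receptor signalling.

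The 9 libraries held 13451069 to 14018893 counts in LPS, 10656332 to 11531551 in SeMC and 14972385 to 17024392 in Control. All 10 macrophage markers examined were at 1 CPM (counts scaled to a common library total) or more in every library, and their summed level was 4325 to 4601 CPM in LPS, 4159 to 4508 CPM in SeMC and 4742 to 5037 CPM in Control. The markers did not move together in LPS cells, where CD74 and SPI1 were called higher and CSF1R, MPEG1, IRF8, MARCO and LAPTM5 lower than in Control. Over all genes, 6.13% were called higher and 5.92% lower in that comparison. In SeMC/CTR, MARCO was called lower (log2 fold change -0.69, edgeR FDR = 0.00652). At an FDR under 0.05, 1 marker was higher and 5 were lower, beside 20.3% and 19.1% of all genes. SeMC replicate 2 stood apart for MPEG1, at 336 CPM beside 503 and 498 CPM in the other SeMC libraries, and for CSF1R, at 265 CPM beside 346 and 342 CPM. Without that library, none of the 8 family genes was called in SeMC/CTR and 3 were called in LPS/SeMC, the numbers found with it. Of 15 markers of other cell types, the 7 analysed summed to 78.5 to 100.1 CPM in LPS, 205 to 211 CPM in SeMC and 189.6 to 209.6 CPM in Control. Most of that sum was PECAM1, which myeloid cells also carry. PECAM1 was called lower in LPS/CTR (log2 fold change -1.37, edgeR FDR = 4.08e-08). Of the lymphocyte markers, the T-cell marker CD3E had 1 to 4 counts in LPS, 0 in SeMC and 1 to 10 in Control, and the T-cell marker CD3D had 7 to 10 in LPS, 5 to 12 in SeMC and 7 to 11 in Control. The B-cell marker PAX5 had 0 to 4 counts in LPS, 0 in SeMC and 0 to 3 in Control. Of the 4 such markers tested in SeMC/CTR, HBBA, ITGA2B and COL1A1 were called higher in SeMC cells, beside 8.5% of all genes. HBBA kept its call in all 15 alternatives (other fits, looser fold minimums, or 1 library left out). Its counts were low, 12 to 27 in SeMC and 7 to 11 in Control. The looser minimums reuse the main fit, so they cannot remove a call. COL1A1 (log2 fold change 0.71) lost its call without Control replicate 2 (0.58) or SeMC replicate 2 (0.56). ITGA2B lost its call without Control replicate 1 (edgeR FDR = 0.0793) or SeMC replicate 3 (edgeR FDR = 0.0809). Limma on quantile-normalized counts called neither COL1A1 (FDR = 0.0518) nor ITGA2B (FDR = 0.0692) in SeMC/CTR. The part of these marker differences in the results below was not tested. RNA was pooled from whole wells, so fewer cells expressing a gene and less RNA per cell cannot be told apart. The labels do not say whether replicates came from separate cultures, and p-values therefore measure only the spread between these libraries.

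A gene was called where its adjusted p (edgeR quasi-likelihood test with Benjamini-Hochberg adjustment over all genes tested, written FDR) was under 0.05 and its fold change was above 1.5. In LPS/CTR, 2 of the 8 genes were called, TNFRSF10B higher and TNFRSF1A lower, beside 12% of the 13008 genes tested (6.13% higher and 5.92% lower). In SeMC/CTR, none of the 8 was called, beside 14.1% of 13146 genes (8.5% higher and 5.58% lower). In LPS/SeMC, 3 of the 8 were called (TNFRSF10B higher, TNFRSF1A and TNFSF13B lower), beside 22.9% of 12979 genes (10.4% higher and 12.5% lower). The median log2 fold change of the 8 genes was -0.17 in LPS/CTR, -0.079 in SeMC/CTR and 0.021 in LPS/SeMC, where the medians over all genes were -0.0015, 0.0010 and -0.0047. Both comparisons against Control use the same 3 Control libraries. All 8 genes passed the filter on low counts in each comparison. CPM values were scaled by the trimmed mean of M-values (TMM), and they allow comparison of 1 gene between groups but not of different genes, because transcript lengths were not used.

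**Figure D1:**
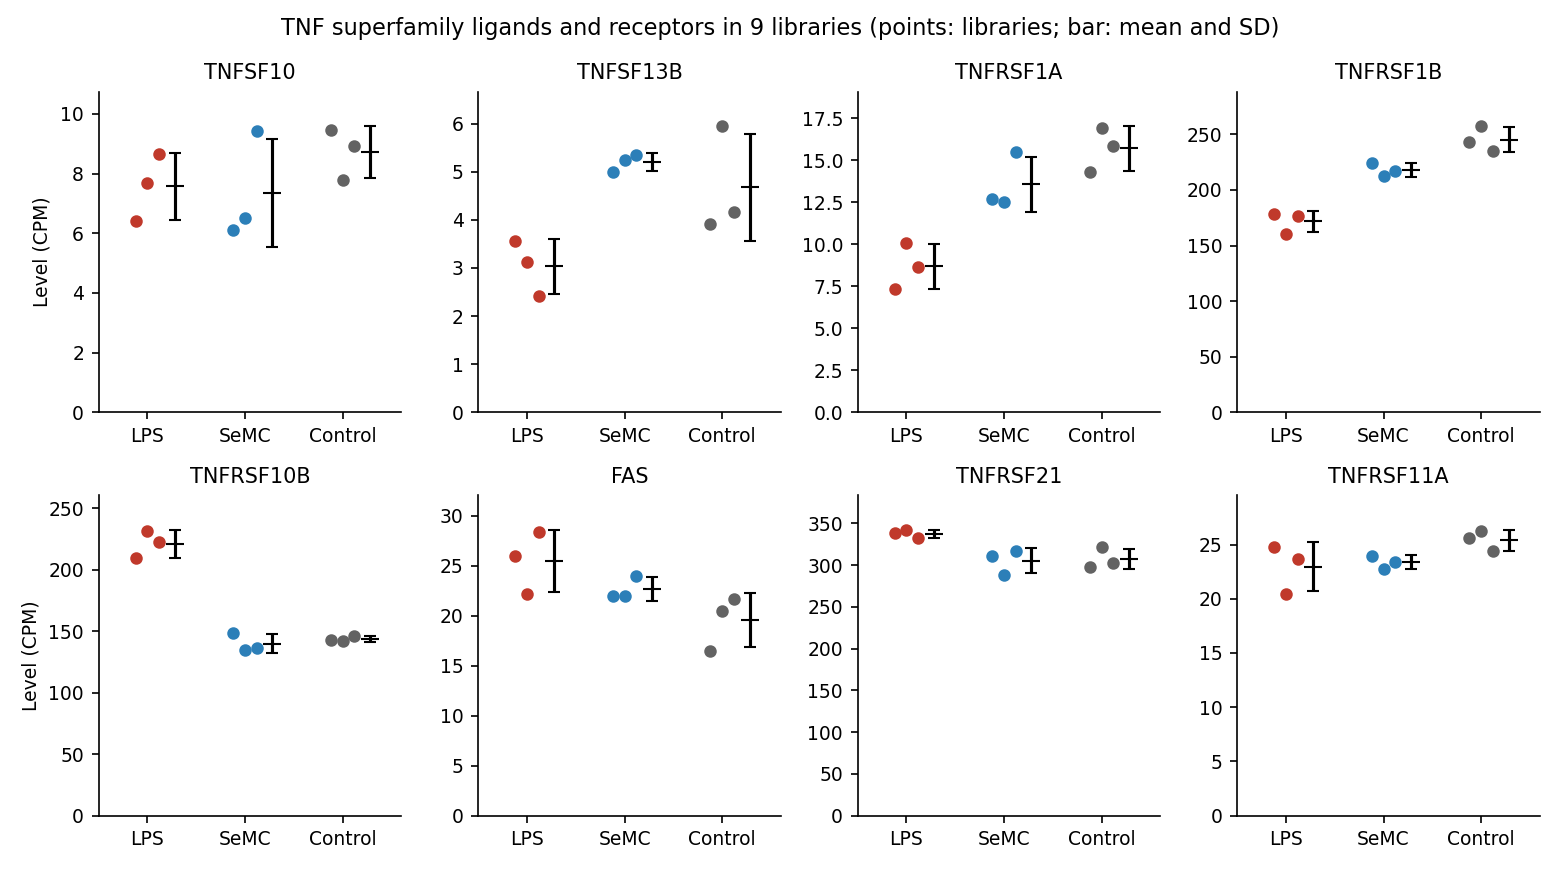
TMM-scaled CPM of the 8 genes (vertical axes, from 0) in each LPS, SeMC and Control library (points), with the group mean and SD (bar). TNFRSF10B lay at 209 to 232 CPM in LPS and at 142 to 146 CPM in Control, and TNFRSF1A lay at 7.34 to 10.1 CPM in LPS and at 14.3 to 16.9 CPM in Control.

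TNFRSF1A, the TNF receptor with a death domain, fell in LPS cells. It lies at chromosome 1, 79453628 to 79466552 (GRCg7b), and overlaps no other annotated gene. Its level was 7.34, 10.1 and 8.64 CPM in LPS, 12.7, 12.5 and 15.5 CPM in SeMC, and 14.3, 16.9 and 15.9 CPM in Control. Every LPS library was below every SeMC and every Control library, while the SeMC and Control ranges overlapped. The LPS mean was 8.68 ± 1.36 CPM and the Control mean 15.7 ± 1.32 CPM (SD, n = 3 each), which made LPS cells 0.553 times Control (log2 fold change -0.85 ± 0.138, SE, edgeR FDR = 0.000191). Across all 15 alternatives the log2 fold change stayed between -0.98 and -0.76 and the call was kept. The looser fold minimums among them could not remove the call. In SeMC/CTR it was -0.21 with a 95% interval of -0.47 to 0.047 (edgeR FDR = 0.179), which was not separable from no difference at this depth.

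TNFRSF1B, the TNF receptor without a death domain, which binds TRAF2 directly, was also below Control in LPS cells but by less than the fold minimum. The gene lies at chromosome 21, 5445530 to 5458723. Its level was 178, 160 and 176 CPM in LPS, 225, 212 and 217 CPM in SeMC, and 243, 257 and 235 CPM in Control. The 3 groups did not overlap, with LPS lowest, SeMC between and Control highest. LPS cells had 0.700 times the Control level (log2 fold change -0.51 ± 0.0592, SE, edgeR FDR = 6.92e-06). SeMC cells had 0.888 times the Control level (log2 fold change -0.17 ± 0.0557, SE, edgeR FDR = 0.0231). Over the 15 alternatives that FDR ran from 0.0174 to 0.122. In the main fit this was the one difference among the 8 genes in SeMC/CTR with an FDR under 0.05. That criterion was met by 39.3% of all genes in SeMC/CTR (20.3% higher and 19.1% lower). In LPS/CTR, 4 of the 8 genes met it in the main fit (TNFRSF10B and FAS higher, TNFRSF1A and TNFRSF1B lower), beside 34.5% of all genes (18% higher and 16.5% lower).

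TNFRSF10B rose in LPS cells. In mammals it is a death receptor for TNFSF10, and in chicken the gene is also known as TVB, the receptor through which some subgroups of avian leukosis and sarcoma viruses enter cells. It lies at chromosome 22, 1325172 to 1331767, and overlaps no other annotated gene. Its level was 209, 232 and 222 CPM in LPS, 149, 134 and 137 CPM in SeMC, and 143, 142 and 146 CPM in Control. All LPS libraries were above all others, and the SeMC range enclosed the Control range. The mean was 221 ± 11.4 CPM in LPS and 144 ± 2.30 CPM in Control (SD, n = 3 each), a fold change of 1.54 (log2 0.62 ± 0.0527, SE, edgeR FDR = 2.46e-07). The value is close to the fold minimum, and the call was lost at a log2 fold change of 0.58 without LPS replicate 2 (edgeR FDR = 3.62e-06) and of 0.53 with limma on quantile-normalized counts (FDR = 0.00554), through the fold minimum in both. In SeMC/CTR the log2 fold change was -0.038 with a 95% interval of -0.16 to 0.083 (edgeR FDR = 0.620).

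FAS, the death receptor for FASLG, was 1.30 times Control in LPS cells, which is under the fold minimum. Its level was 25.9, 22.2 and 28.3 CPM in LPS, 21.9, 22.0 and 24.0 CPM in SeMC, and 16.5, 20.5 and 21.6 CPM in Control. Both treated groups lay above every Control library, and they overlapped each other. The log2 fold change was 0.38 ± 0.119 (SE) in LPS/CTR (edgeR FDR = 0.0222) and 0.21 ± 0.111 (SE) in SeMC/CTR (edgeR FDR = 0.147). Over the 15 alternatives the LPS/CTR value was 0.27 to 0.46, and its FDR ran from 0.0116 to 0.138. The FAS locus (chromosome 6, 20018484 to 20030805) overlaps ACTA2, the smooth-muscle actin gene, which had 18901 to 19289 counts in LPS, 3088 to 3089 in SeMC and 4748 to 5458 in Control. The strand setting used in counting is not given in the sources used here, so reads of the overlap cannot be assigned to FAS or ACTA2 with certainty. In CPM, ACTA2 was at 1407 to 1483 in LPS, 262 to 279 in SeMC and 314 to 340 in Control. ACTA2 was thus highest in LPS, where FAS also had its highest mean, and lowest in SeMC, where FAS had its middle level. The part of ACTA2 reads in the FAS values was not tested.

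TNFRSF21 (DR6), a death-domain receptor known in mammals from neurons and lymphocytes, differed little between groups. The gene is at chromosome 3, 109734332 to 109767402. Its level was 338, 342 and 332 CPM in LPS, 311, 288 and 317 CPM in SeMC, and 298, 321 and 303 CPM in Control. The LPS libraries were the highest of the 9, and SeMC and Control overlapped. The log2 fold change in LPS/CTR was 0.13 with a 95% interval of 0.027 to 0.24 (edgeR FDR = 0.0502), which did not pass the threshold. In SeMC/CTR it was -0.012, with a 95% interval of -0.13 to 0.11 (edgeR FDR = 0.886).

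TNFRSF11A encodes RANK, the receptor for TNFSF11 on osteoclast precursors, which belong to the macrophage lineage. The gene is at chromosome 2, 67948225 to 67974728. Its level was 24.8, 20.5 and 23.6 CPM in LPS, 24.0, 22.7 and 23.4 CPM in SeMC, and 25.6, 26.3 and 24.4 CPM in Control. All SeMC libraries were below all Control libraries, while LPS overlapped both groups. The log2 fold change was -0.14 in LPS/CTR (95% interval -0.35 to 0.062, edgeR FDR = 0.273) and -0.12 in SeMC/CTR (95% interval -0.31 to 0.066, edgeR FDR = 0.290).

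The ligand TNFSF13B (BAFF), which macrophages make and which sustains B cells through TNFRSF13C, was the gene with the fewest reads of the 8. It lies at chromosome 1, 140207645 to 140226148. There were 46, 42 and 32 counts in LPS, 59, 58 and 62 in SeMC, and 59, 91 and 72 in Control. These correspond to 3.55, 3.13 and 2.43 CPM in LPS, 5.00, 5.25 and 5.36 CPM in SeMC, and 3.91, 5.95 and 4.17 CPM in Control. Every LPS library was below every other library, and the SeMC libraries lay within the Control range. In LPS/CTR the fold change of 0.651 (log2 -0.62 ± 0.247, SE, 95% interval -1.15 to -0.092) gave an edgeR FDR of 0.0658 and was not called. It was called without LPS replicate 1 (log2 fold change -0.76, edgeR FDR = 0.0407) and when all 9 libraries were fitted together (log2 fold change -0.63, edgeR FDR = 0.0386), and over all 15 alternatives the FDR was 0.0386 to 0.252. In SeMC/CTR the log2 fold change was 0.15 (95% interval -0.30 to 0.60, edgeR FDR = 0.586).

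The ligand TNFSF10 (TRAIL), which in mammals binds TNFRSF10B and triggers death of many transformed cells, was not called in any comparison. The gene lies at chromosome 9, 18994355 to 19003010. Its level was 6.41, 7.67 and 8.64 CPM in LPS, 6.10, 6.51 and 9.42 CPM in SeMC, and 9.47, 7.78 and 8.91 CPM in Control, and all 3 groups overlapped. The log2 fold change was -0.20 in LPS/CTR (95% interval -0.54 to 0.13, edgeR FDR = 0.343) and -0.25 in SeMC/CTR (95% interval -0.62 to 0.13, edgeR FDR = 0.276). The intervals do not exclude decreases down to these lower bounds, with 72 to 154 counts per library. The locus overlaps GHSR, the ghrelin receptor gene, which had at most 4 counts in any library.

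**Figure D2:**
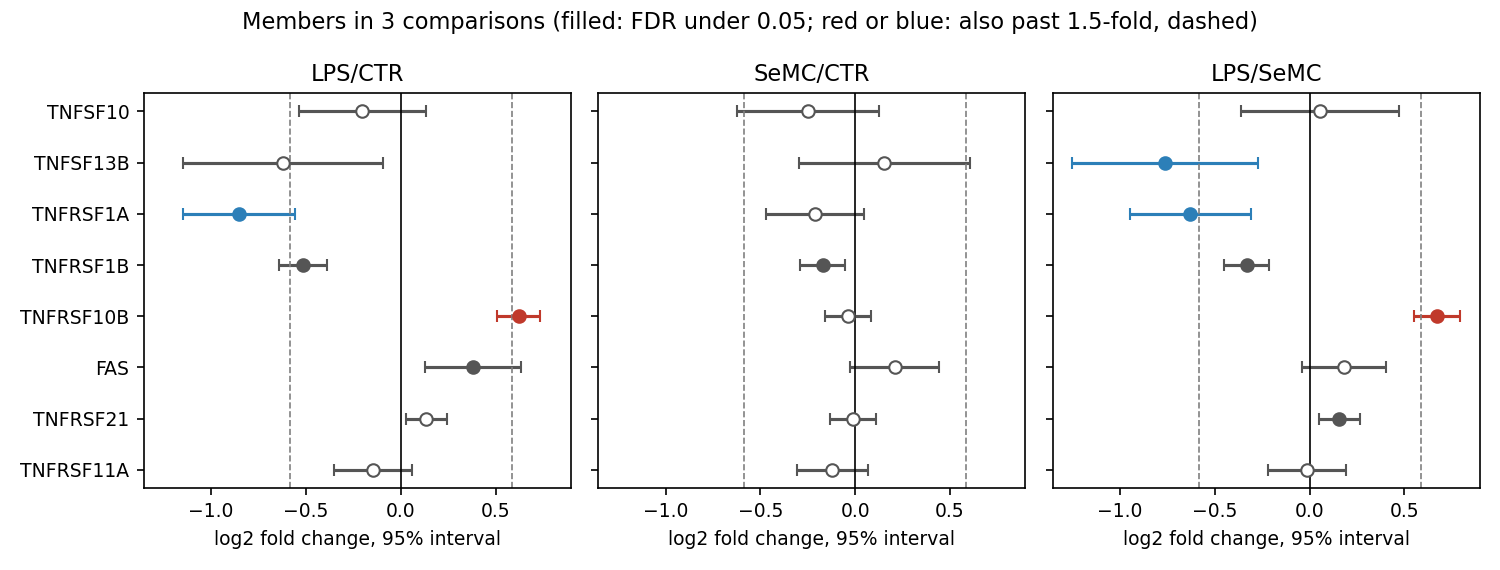
Log2 fold change (horizontal axes, with 95% interval) of the 8 genes in LPS/CTR, SeMC/CTR and LPS/SeMC. Filled points have an edgeR FDR under 0.05, coloured points are also past the 1.5-fold minimum (dashed lines), and in SeMC/CTR the one filled point is TNFRSF1B at -0.17.

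In LPS/CTR, 6 of the 8 genes had groups that did not overlap, beside 46.1% of all genes tested, and in SeMC/CTR there were 3 (TNFRSF1B, TNFRSF11A and FAS), beside 50.9%. No gene of the 8 was called in SeMC/CTR by edgeR, DESeq2, limma-voom or limma on quantile-normalized counts, and 1 (TNFRSF1B) had an unadjusted p under 0.05. In tests on simulated counts at these library sizes, edgeR called 168 of 200 genes changed 2-fold in SeMC/CTR. Those genes were drawn at random from all that passed the filter. The result therefore does not give the power for smaller changes or for these 8 genes. The 95% intervals in SeMC/CTR reached beyond 1.5-fold only for both ligands, to -0.62 for TNFSF10 and to 0.60 for TNFSF13B on the log2 scale.

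LPS and SeMC cells were also compared directly, without Control libraries, although the agents differ in dose and in time of exposure. TNFRSF10B was higher in LPS cells, at 221 ± 11.4 CPM against 140.0 ± 7.71 CPM in SeMC cells (SD, n = 3 each), a fold change of 1.59 (log2 0.67 ± 0.0571, SE, edgeR FDR = 5.99e-07). That call was lost at a log2 fold change of 0.58 with limma on quantile-normalized counts (FDR = 0.00415). TNFRSF1A was lower in LPS cells, with a mean of 8.68 ± 1.36 CPM against 13.6 ± 1.66 CPM in SeMC cells and a log2 fold change of -0.63 ± 0.148 (SE, edgeR FDR = 0.00286). It dropped under the fold minimum without LPS replicate 1 (log2 fold change -0.52, edgeR FDR = 0.0120) or without SeMC replicate 3 (log2 fold change -0.53, edgeR FDR = 0.0169). TNFSF13B was lower in LPS cells, with a mean of 3.03 ± 0.569 CPM against 5.20 ± 0.183 CPM in SeMC cells and a log2 fold change of -0.76 ± 0.226 (SE, edgeR FDR = 0.0119). Without LPS replicate 3 it was -0.62 (edgeR FDR = 0.0549).

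The other receptors differed less between LPS and SeMC cells. TNFRSF1B was 0.794 times as high in LPS cells (log2 fold change -0.33, edgeR FDR = 0.000199), and TNFRSF21 had a log2 fold change of 0.16 (edgeR FDR = 0.0165), both under the fold minimum. Over the 15 alternatives the FDR of TNFRSF21 ran from 0.0113 to 0.475. FAS (log2 fold change 0.18, 95% interval -0.040 to 0.40), TNFRSF11A (-0.014, interval -0.22 to 0.19) and TNFSF10 (0.056, interval -0.36 to 0.47) were not separated by the edgeR test. In all, 5 of the 8 genes had an FDR under 0.05 in LPS/SeMC, 2 higher and 3 lower, beside 54.3% of all genes (27.1% higher and 27.2% lower). Groups did not overlap for 5 of the 8 genes, beside 61.3% of all genes.

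Because TNFRSF10B had a positive and both TNF receptors a negative log2 fold change in LPS/CTR, their counts were set against each other within each library, a choice made after their values were seen. Such a ratio does not depend on how libraries are scaled, and its change between groups is a description without a test. There were 28.5, 23.1 and 25.7 TNFRSF10B counts per TNFRSF1A count in LPS, 11.7, 10.8 and 8.84 in SeMC, and 9.98, 8.39 and 9.22 in Control. Per TNFRSF1B count there were 1.17, 1.45 and 1.26 TNFRSF10B counts in LPS, 0.662, 0.633 and 0.630 in SeMC, and 0.586, 0.552 and 0.621 in Control. In both ratios the LPS libraries stood above all others, which follows from the levels of the 3 receptors given above and is no further result. The ratio of TNFRSF1B to TNFRSF1A counts was 24.3, 16.0 and 20.4 in LPS, 17.7, 17 and 14.0 in SeMC, and 17.0, 15.2 and 14.8 in Control, with overlapping groups.

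**Figure D3:**
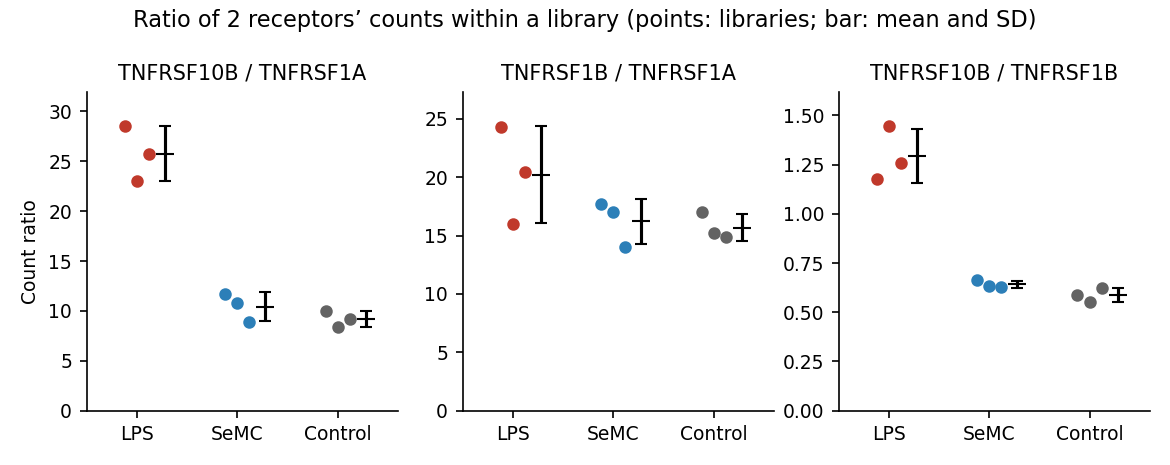
Ratio of the counts of a pair of receptors within each library (vertical axes, no unit, from 0), by group, with mean and SD. LPS libraries stand at 23.1 to 28.5 TNFRSF10B counts per TNFRSF1A count and Control libraries at 8.39 to 9.98, while the ratio of TNFRSF1B to TNFRSF1A overlaps between groups.

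The receptors' partners and the rest of the family were described from lists chosen with earlier results of these data known. Counts from these lists are a description. Of 35 other ligands and receptors of the family, 14 were read from the table. In LPS/CTR, 13 of these were tested and 5 were called, 3 higher and 2 lower, beside 12% of all genes (6.13% higher and 5.92% lower), with a median log2 fold change of 0.0098. EDA, a ligand known for the development of feathers, hair and teeth, showed the greatest fold change among them. Its level was 8.11, 10.8 and 11.7 CPM in LPS, 0.847, 0.543 and 1.38 CPM in SeMC, and 1.66, 1.70 and 1.04 CPM in Control. It had 105 to 154 counts in LPS, but only 6 to 16 in SeMC and 18 to 26 in Control. LPS libraries did not overlap either group, and the log2 fold change in LPS/CTR was 2.80 ± 0.232 (SE, edgeR FDR = 1.91e-07).

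CD40, through which T cells activate macrophages, had 220.2, 226 and 229.7 CPM in LPS, 144, 141 and 133 CPM in SeMC, and 122, 124 and 128 CPM in Control. All LPS libraries were highest and all Control libraries lowest. The log2 fold change was 0.85 ± 0.0502 (SE) in LPS/CTR (edgeR FDR = 4.06e-09) and 0.16 in SeMC/CTR (edgeR FDR = 0.0325, under the fold minimum). TNFRSF9, a receptor best known from activated T cells, was 21.1 ± 1.09 CPM in LPS and 12.7 ± 1.62 CPM in Control (SD, n = 3 each), a log2 fold change of 0.73 (edgeR FDR = 0.000153). TNFRSF9 overlaps PARK7, which had 1008 to 1131 counts in LPS and 1119 to 1521 in Control. TNFRSF9 is named to complete the 5 called genes, since the rule for naming genes kept only the first 4.

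The called genes that were lower in LPS cells were both costimulatory receptors known from T cells. TNFRSF4 had 8.42, 8.26 and 7.81 CPM in LPS, 17.2, 15.3 and 17.4 CPM in SeMC, and 14.8, 16.9 and 15.7 CPM in Control. LPS libraries were lowest, SeMC and Control overlapped, and the log2 fold change in LPS/CTR was -0.95 ± 0.123 (SE, edgeR FDR = 2.24e-05). TNFRSF18 averaged 16.9 ± 1.10 CPM in LPS and 29.0 ± 1.67 CPM in Control (SD, n = 3 each), a log2 fold change of -0.78 ± 0.0956 (SE, edgeR FDR = 1.39e-05). Beside these, the T-cell marker CD3E had 1 to 4 counts in LPS and 1 to 10 in Control, and CD3D had 7 to 10 in LPS and 7 to 11 in Control. The part of T-cell RNA in these differences was not tested.

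**Figure D4:**
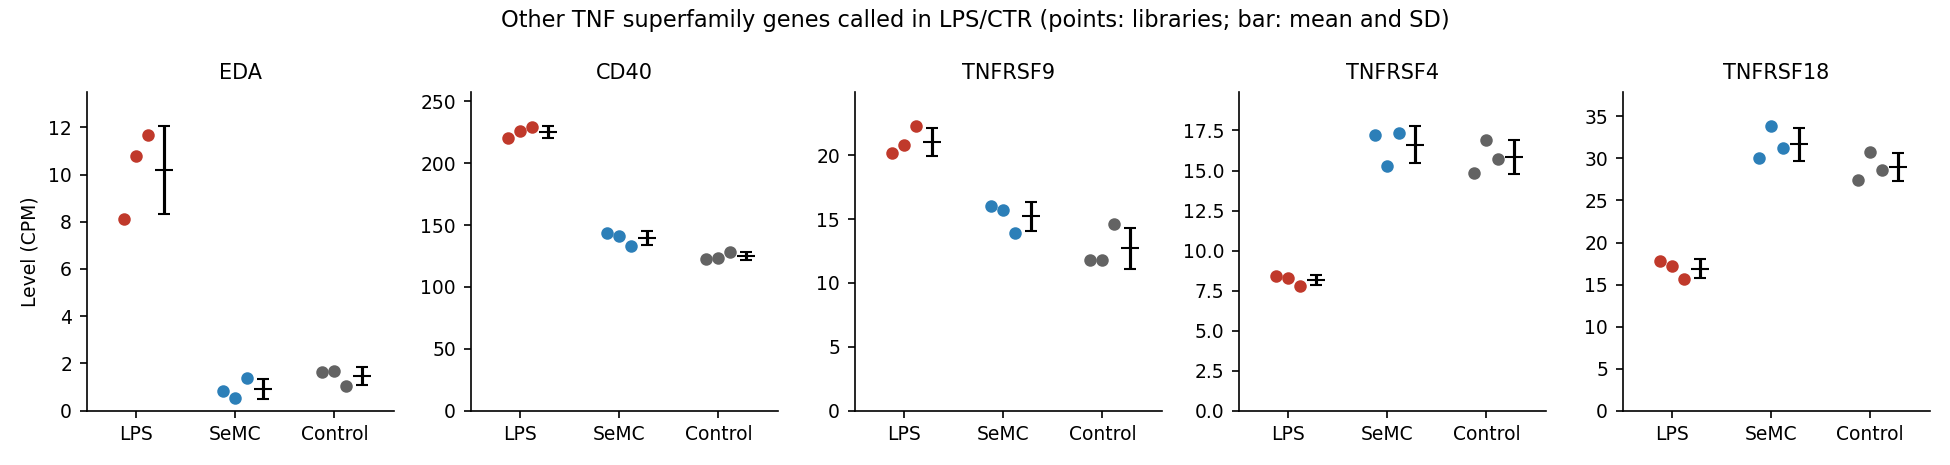
TMM-scaled CPM (vertical axes, from 0) of the 5 other family genes called in LPS/CTR, in each library (points) with group mean and SD (bar). EDA, CD40 and TNFRSF9 are higher in LPS than in Control, TNFRSF4 and TNFRSF18 are lower, and SeMC overlaps Control for EDA, TNFRSF9, TNFRSF4 and TNFRSF18.

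FASLG, the ligand of FAS, had 9 to 25 counts in LPS, 17 to 25 in SeMC and 14 to 20 in Control. TNFSF11, the ligand of TNFRSF11A, had 11 to 16 counts in LPS, 10 to 16 in SeMC and 17 to 37 in Control. Neither was called in any comparison. TNFRSF13C, the main receptor for TNFSF13B, averaged 31.5 ± 1.33 CPM in LPS, 35.8 ± 3.49 CPM in SeMC and 36.2 ± 1.84 CPM in Control, with a LPS/CTR log2 fold change of -0.20 (edgeR FDR = 0.0562). TNFRSF13B, another TNFSF13B receptor, had 0 to 5 counts and was not tested. In SeMC/CTR none of the 12 genes tested was called by edgeR or the other tools, beside 14.1% of all genes called by edgeR. Of the 12, 2 had an unadjusted p under 0.05, both higher. An edgeR FDR under 0.05 was met by 1 (CD40, higher), beside 39.3% of all genes. In LPS/SeMC, 4 of 11 were called, beside 22.9% of all genes (10.4% higher and 12.5% lower). EDA (log2 fold change 3.45) and CD40 (0.70) were higher in LPS than in SeMC cells, and TNFRSF4 (-1.01) and TNFRSF18 (-0.89) were lower.

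Among 19 adaptors, ubiquitin ligases and kinases that act next to the receptors, 7 were called higher and none lower in LPS/CTR, beside 6.13% and 5.92% of all genes, with a median log2 fold change of 0.14 (6 were called by DESeq2, limma-voom and quantile limma). BIRC2, a ubiquitin ligase of the TNFRSF1A complex, rose to 234 ± 8.42 CPM in LPS cells, against 57.8 ± 0.217 CPM in Control (SD, n = 3 each; log2 fold change 2.02 ± 0.0545, SE, edgeR FDR = 4.73e-13). The adaptors TRAF2 (log2 fold change 1.56) and TRAF1 (1.47) and the kinase MAP3K8 (1.06) also rose. TRADD, the adaptor of TNFRSF1A, had a log2 fold change of 0.085 (edgeR FDR = 0.341). In SeMC/CTR the adaptor TRAF4 was the single gene called in this list, beside 14.1% of all genes. It was at 6.09 ± 0.390 CPM in SeMC and 3.35 ± 0.153 CPM in Control (log2 fold change 0.86 ± 0.198, SE, edgeR FDR = 0.00334). Its counts were low, 63 to 75 in SeMC, 53 to 76 in LPS and 48 to 60 in Control. TRAF4 was also called higher in LPS/CTR (log2 fold change 0.61, edgeR FDR = 0.0427). It was not called in LPS/SeMC (-0.24, edgeR FDR = 0.319). The list's median was -0.088. At an FDR under 0.05 without a fold minimum, 2 of the 19 were higher and 8 lower, beside 20.3% and 19.1% of all genes. In LPS/SeMC 7 were called, all higher in LPS cells, beside 10.4% of all genes higher and 12.5% lower. They were led by BIRC2 (log2 fold change 2.41), TRAF2 (1.85), MAP3K8 (1.55) and TRAF1 (1.53).

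Of 15 components of death signalling, 2 were called in LPS/CTR, both higher, with a list median of -0.026. This count is near the 12% called over all genes, as the count in SeMC/CTR is near 14.1%. The 2 called in LPS/CTR were MLKL and RIPK3, which carry out necroptosis in mammals. MLKL had 27.1 ± 2.26 CPM in LPS cells and 3.23 ± 0.780 CPM in Control (SD, n = 3 each; log2 fold change 3.06 ± 0.152, SE, edgeR FDR = 5.59e-10), and RIPK3 had a log2 fold change of 1.17 (edgeR FDR = 1.16e-07). The adaptor and the initiator caspase used by FAS were not called, with FADD at -0.0099 (edgeR FDR = 0.915) and CASP8 at 0.36 (edgeR FDR = 0.000313, under the fold minimum). In SeMC/CTR, 2 genes of the list were called, both lower, with a median of -0.14. CFLAR, an inhibitor of CASP8, averaged 12.6 ± 1.05 CPM in SeMC and 20.4 ± 2.19 CPM in Control (log2 fold change -0.70 ± 0.118, SE, edgeR FDR = 0.000390), and MLKL averaged 1.17 ± 0.364 CPM in SeMC and 3.23 ± 0.780 CPM in Control (log2 fold change -1.47, edgeR FDR = 0.00327). MLKL is named here although its mean of 32.7 counts in this comparison was under the minimum for naming. In LPS/SeMC, 3 of 15 were called, beside 22.9% of all genes (10.4% higher and 12.5% lower). MLKL (log2 fold change 4.55), RIPK3 (1.23) and CASP10 (0.60) were called higher in LPS cells. CASP10 was lost without SeMC replicate 3 (0.56, edgeR FDR = 0.0193) and with all 9 libraries in 1 fit (0.58, edgeR FDR = 0.0152).

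Among 12 brakes on TNF receptor and NF-κB signalling tested in LPS/CTR, 8 were called higher and none lower, beside 6.13% and 5.92% of all genes, with a median log2 fold change of 1.18. NFKBIA, the inhibitor that holds NF-κB in the cytoplasm, averaged 304 ± 16.4 CPM in LPS and 87.1 ± 2.35 CPM in Control (SD, n = 3 each; log2 fold change 1.80 ± 0.0550, SE, edgeR FDR = 1.76e-12). TNFAIP3, which removes ubiquitin chains from receptor complexes, averaged 214 ± 0.255 CPM in LPS and 69.6 ± 5.69 CPM in Control (log2 fold change 1.62 ± 0.0636, SE, edgeR FDR = 3.25e-11). NFKBIZ (log2 fold change 1.91), a nuclear family member that can also activate genes, and NFKBIE (1.29) were also called higher. TNIP3, with a mean of 12.5 counts and so outside the rule for naming genes, was called at 2.61. In SeMC/CTR none of 11 was called by any of the 4 tools, beside 14.1% of all genes called by edgeR. Among the 11, 3 higher and 4 lower genes had an unadjusted p under 0.05. At an edgeR FDR under 0.05, 3 were higher and 3 lower, beside 20.3% and 19.1% of all genes. TNFAIP3 had a log2 fold change of 0.43 (edgeR FDR = 0.000345) and NFKBIA of -0.32 (edgeR FDR = 0.00100), both under the fold minimum. In LPS/SeMC 8 of 12 were called, all higher in LPS cells, beside 10.4% of all genes higher and 12.5% lower. Among those with a mean of 50 counts or more, the log2 fold change was highest for NFKBIA (2.13), NFKBIZ (2.09), NFKBIE (1.68) and TNIP2 (1.23). TNIP3, below that mean, was called higher at 3.13, with 12 to 29 counts in LPS and 0 to 6 in SeMC. Over the alternatives its log2 fold change ran from 2.55 to 7.32.

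The last list held proteases that release or process TNF family members, RHBDF1, RHBDF2, the inhibitor TIMP3 and LITAF, with 7 of 8 genes tested. In LPS/CTR, 2 were called higher, beside 6.13% of all genes, with a median of 0.25. LITAF, first described as an LPS-induced factor acting on the TNF gene, averaged 44.8 ± 0.690 CPM in LPS and 25.4 ± 1.23 CPM in Control (SD, n = 3 each; log2 fold change 0.82 ± 0.0753, SE, edgeR FDR = 5.99e-07). TIMP3, an inhibitor of the protease ADAM17, had a log2 fold change of 0.76 (edgeR FDR = 0.00993), which was 0.63 without Control replicate 3 (edgeR FDR = 0.0511). Limma on quantile-normalized counts called TIMP3 neither in LPS/CTR (FDR = 0.0704) nor in SeMC/CTR (FDR = 0.0556). In SeMC/CTR, TIMP3 was called by edgeR (0.80, FDR = 0.00649) and LITAF was not (-0.097, edgeR FDR = 0.397). In LPS/SeMC, LITAF was called (0.93, edgeR FDR = 2.72e-07). ADAM17 itself was not called, at 0.046 on the log2 scale in LPS/CTR and 0.11 in SeMC/CTR.

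**Figure D5:**
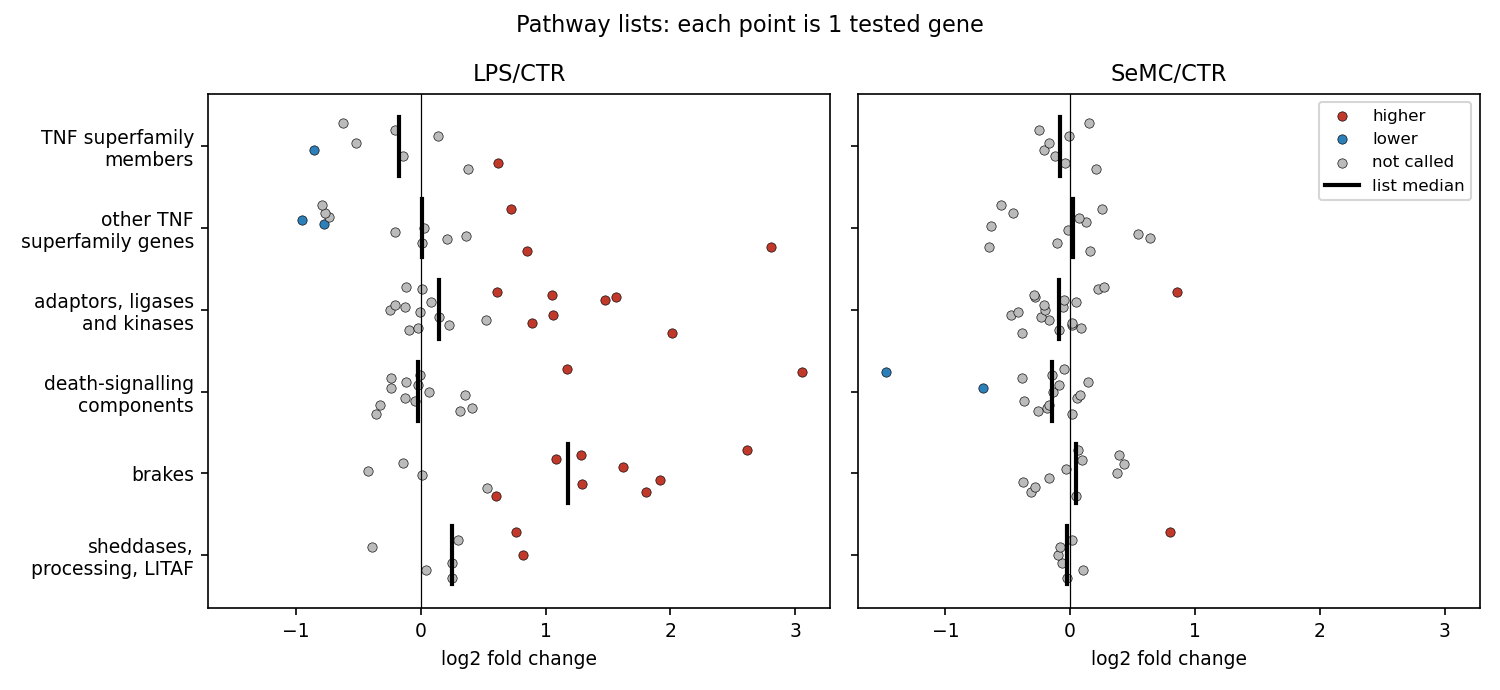
Log2 fold change (horizontal axes) of each tested gene of the 8 family genes and of 5 pathway lists, in LPS/CTR and SeMC/CTR, with list medians (black lines). The brakes have a median of 1.18 in LPS/CTR and 0.044 in SeMC/CTR, and the 8 family genes have medians of -0.17 and -0.079.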

How the data were processed

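RNA-seq libraries of HD11 cells were read as raw counts. The deposited counts are whole reads per gene that the authors obtained by mapping single reads with HISAT2 to GRCg7b and counting with HTSeq; versions, annotation release and strand setting are not given in the sources used here. The 3 SeMC+LPS columns were left out, because in 16160 of 16161 genes, including all 8 described here, each equals the rounded-down mean of the same-numbered LPS and SeMC counts. Counts were tested per pair of groups with edgeR 4.0.16 (R 4.3.3; TMM, filterByExpr with a minimum count of 10, quasi-likelihood test, Benjamini-Hochberg adjustment). Genes were called at FDR under 0.05 and fold change above 1.5, the thresholds in the study's methods. SE was worked back from the same fits, as the absolute log2 fold change over the square root of the quasi-likelihood F statistic. The 95% intervals use that SE and a t quantile, so both are approximate. Alternatives were DESeq2 1.42.0, limma 3.58.1 (voom, or quantile-normalized log2(count + 1)), size factors, no filter, all 9 libraries, a replicate block, other fold minimums and leaving out each library. On simulated data with 200 genes changed 2-fold, edgeR called 172 in LPS/CTR and 176 in LPS/SeMC.

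The genes and lists were chosen with earlier results of these data known. From each list and comparison the text names at most 4 called genes, those of largest change whose mean count reached 50, plus LITAF, TNFAIP3, NFKBIA, CASP8, FADD and TRADD. Outside that rule, TNFRSF9, MLKL, TNIP3, HBBA and ITGA2B were added after their values were seen. So were the values of TRAF4 in LPS/CTR and LPS/SeMC. All macrophage markers called in LPS/CTR are also named. TNF was not analysed here. Gene positions came from the RefSeq annotation of GRCg7b, which held 16154 of the 16161 symbols. Named genes that overlap another gene are FAS, FASLG, TNFSF10, TNFRSF9, TRADD, TRAF1, CFLAR, NFKBIZ, LITAF, RHBDF1, TIMP3, SPI1, MPEG1, CD3E and PECAM1. The unstated strand leaves their counts uncertain.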

Additional observations from a re-analysis of the deposited data

How the results depend on the processing

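Among the 8 genes, 343 of 360 log2 fold changes under the alternatives kept their side of the thresholds, and no called gene reversed. The looser fold minimums reuse the main fit and can add calls but not remove them. Direction was not counted for genes that were not called, and TNFSF10 in LPS/SeMC ranged from -0.070 to 0.27. Among the other named genes, 1040 of 1065 values kept their call or lack of a call. TNFRSF1B passed in LPS/CTR with quantile limma (-0.60, FDR = 0.00637). Of the 8 genes, 4 were called in LPS/CTR both with a 1.2-fold minimum and with none, against 2 at 1.5-fold, and 3 were called when the 9 libraries were fitted together. With no minimum, 1 was called in SeMC/CTR and 5 in LPS/SeMC. Leaving out each library gave 1 to 3 genes in LPS/CTR (1 without LPS replicate 2, 3 without LPS replicate 1), 0 in SeMC/CTR and 2 to 3 in LPS/SeMC. Over all genes, the calls numbered 1567 in LPS/CTR, 1850 in SeMC/CTR and 2971 in LPS/SeMC. With a 1.2-fold minimum these became 3597, 4111 and 5883, and with none 4491, 5172 and 7051, as the looser rule implies. Leaving out each library gave 1438 to 1667, 1718 to 1919 and 2836 to 3075. Quantile limma, run without the filter on low counts, called 801 of 16157 genes higher and 1149 lower in SeMC/CTR. By edgeR, 1117 of 13146 filtered genes were higher and 733 lower, and without the filter 1296 and 996 of 16157. The cause of these differences was not tested. No alternative moved the median of all genes by over 0.1 on the log2 scale. With the replicate number as a block, 1523, 1844 and 2971 genes were called, and 2, 0 and 3 of the 8. The correlation of same-numbered deviations over 10840 genes was -0.19 to -0.030 in LPS/CTR, -0.013 to 0.067 in SeMC/CTR and -0.0053 to 0.062 in LPS/SeMC. The best match had the same number for SeMC replicate 1 in SeMC/CTR and LPS replicates 2 and 3 in LPS/SeMC, but for none in LPS/CTR. With 3 libraries per group, these values cannot settle whether the numbers pair the libraries. Depth limited TNFSF13B most, with 32 to 91 counts per library.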
